A study of Mus musculus with 30 samples.

Results

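Brown adipose tissue (BAT) was compared with sWAT, commonly short for subcutaneous white fat, in C57BL/6N mice fed HFD, commonly short for a high-fat diet. The comparison takes 10 of the 30 RNA-sequencing libraries of a study of the glucose-lowering drug imeglimin: the 5 BAT and the 5 sWAT libraries of mice given HFD without the drug, which carry the numbers 75, 76, 79, 80 and 83 in both tissues. All 10 share strain and diet, and the liver and imeglimin libraries were not used. Age, sex, the depot that was dissected and whether a number marks 1 animal are not stated in the labels, so the p-values reflect only how these samples varied, and some of that variation may be technical. The design text of the series gives 4 against 4, whereas the labels give 5 against 5, and the labels were followed.

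Brown adipocytes burn fuel to make heat. Their many mitochondria carry UCP1, a protein of the inner membrane that lets protons return to the matrix without making ATP, and they are switched on by noradrenaline through beta-adrenergic receptors. White adipocytes store energy in a single large lipid droplet and secrete hormones such as leptin, which reports fat stores to the brain, and adiponectin, which sensitises tissues to insulin. The depots also arise from different embryonic positions, which adult adipocytes still record in homeobox gene expression.

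Values were the deposited TPM, which are estimated transcript abundances per unit of length scaled to the same total in every library, so the depth behind them is unknown. The 37 mitochondrially encoded genes and 16 nuclear genes nearly identical to them were dropped and the rest was scaled back to 1000000, and these values are called rescaled TPM. A gene was called when its mean log2(rescaled TPM + 1) differed at least 2-fold with a limma adjusted p under 0.05. The correlation of these values between libraries was 0.981 to 0.995 within BAT, 0.990 to 0.994 within sWAT and 0.927 to 0.940 between the tissues. At least 1 rescaled TPM was reached by 13633 ± 221 genes in BAT and 14122 ± 112 in sWAT (SD, n = 5).

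Transcripts of muscle and liver were present in BAT to differing degrees. The 21 skeletal muscle markers summed to 20779 rescaled TPM in BAT replicate 79 and to 468 to 2927 in the other 4 BAT libraries, against 127 to 183 in sWAT. The 18 hepatocyte markers other than Trf and Cyp2e1 summed to 4604 and 4971 in BAT replicates 79 and 83 and to 74.5 in BAT replicate 80, against 35.5 to 372 in sWAT. With Trf and Cyp2e1, which adipocytes also express, the 20 markers summed to 128 to 5398 in BAT and 2959 to 4071 in sWAT. Values without replicates 79 and 83 are given beside the liver list and wherever leaving them out moved a list's larger count by over 1.5 times. Both tissues carried the markers of their label, as set out below, and of 20 markers of skin, breast and other epithelia 7 were listed at 0 in all 10 libraries, Krt5, Krt14 and Csn2 among them. All 20 summed to 4.89 to 39.3 in BAT, highest in replicate 79, and to 5.27 to 17.4 in sWAT.

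Mitochondrially encoded transcripts held a larger share of the BAT libraries than of the sWAT libraries. The mitochondrial genome encodes core subunits of the respiratory chain, and its RNA rises and falls with the amount of mitochondria in a tissue and with their transcription. The 37 mitochondrially encoded genes held 38.6% ± 1.59 of the deposited TPM in BAT and 13.3% ± 1.51 in sWAT (SD, n = 5). The 16 nuclear near-copies, pseudogenes whose reads cannot be told from mitochondrial RNA, held 26.8% ± 0.822 and 7.12% ± 0.725.

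Together the 2 classes held 66.3%, 65.6%, 63.0%, 64.5% and 67.9% in BAT replicates 75, 76, 79, 80 and 83. In sWAT the same numbers stood at 20.8%, 17.0%, 22.9%, 20.004% and 21.6%. The groups did not overlap, and the difference of 45.0 percentage points gave p = 0.00794 in an exact two-sided permutation test, the smallest that 5 against 5 can give. Among the single genes, mt-Co1, a subunit of cytochrome oxidase, had the highest mean in BAT, 92223 deposited TPM and 2.49 times its sWAT mean. After these genes were dropped, BAT values were multiplied by 2.70 to 3.11 and sWAT values by 1.20 to 1.30.

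**Figure D1:**
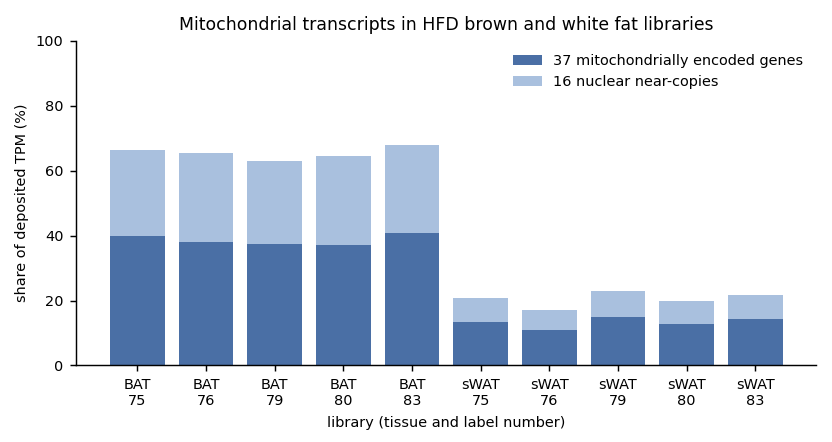
Share of the deposited TPM, in percent, held by the 37 mitochondrially encoded genes (dark) and their 16 nuclear near-copies (light) in each of the 10 libraries. The BAT bars reach 63.0% to 67.9% and the sWAT bars 17.0% to 22.9%.

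Of 14064 genes tested, 4266 were called, or 30.3%. Those higher in BAT numbered 1346 (9.57%) and those higher in sWAT 2920 (20.8%). The split depends on scale, because the median log2 difference over all genes tested was -0.31 (BAT minus sWAT), and scaling by the median ratio of all genes instead gave 1828 higher in BAT and 2018 higher in sWAT. Dropping only the mitochondrially encoded genes, with the near-copies kept, gave 694 and 6165 around a median of -0.93. Each list median below is to be read against the -0.31 of all genes. Each list count is to be read against the 9.57% and 20.8%, except where the filter on low values set the direction of the calls. The lists were chosen with earlier results of these data known, so their counts describe the lists only. A gene near 0 in one tissue could be tested only when all 5 libraries of the other reached 1 rescaled TPM, so the direction of its call was set by the filter. An adjusted p under 0.05 alone was met by 72.4% of genes, 21.7% higher in BAT and 50.7% higher in sWAT. The 5 values of each tissue did not overlap for 57.3%, with BAT above for 16.8% and sWAT above for 40.5%. Differences of at least 16-fold were called for 78 genes higher in BAT (0.555%) and 68 higher in sWAT (0.484%).

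The genes of heat production were higher in BAT. Of the 30 genes in the thermogenic list 28 passed the filter on low values, and 27 of these were called higher in BAT and none in sWAT. The list was chosen with earlier results of these data known. Members near the limit of measurement in sWAT, such as Ucp1, passed the filter through their BAT values, so the filter set the direction of their calls. The count of 27 is therefore a description only and is not weighed against the 9.57% of all genes. The median log2 difference of the 28 was 4.39. The summed level of the list ran from 42369 to 49648 rescaled TPM in BAT and from 547 to 982 in sWAT. Scaling mattered little here, since 25 were called when no gene was dropped. In bulk tissue, fewer cells of a type and less RNA per cell cannot be told apart.

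Ucp1 (chr8:84016981-84025081, plus strand, GRCm39) stood at 15462, 13985, 11085, 16738 and 13185 rescaled TPM in BAT replicates 75, 76, 79, 80 and 83. In sWAT it stood at 0.188, 0.328, 0.568, 1.02 and 0.764. It was thus among the most abundant nuclear transcripts of one tissue and near the limit of measurement in the other, with a log2 difference of 13.14 ± 0.128 (SE; limma adjusted p = 6.12e-09). Fabp3 (chr4:130202388-130209256), which carries fatty acids in the cytosol of oxidative tissues, stood at 5783 ± 466 in BAT and 0.579 ± 0.476 in sWAT (SD, n = 5). Cpt1b, which admits fatty acids to mitochondria in muscle and brown fat, stood at 1385 ± 86.7 and 14.5 ± 2.81.

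Cidea, a lipid droplet protein used to mark brown fat, ranged from 4687 to 5825 in BAT and from 20.2 to 55.3 in sWAT. Cox7a1, a subunit of cytochrome oxidase, ranged from 3611 to 4087 and from 12.6 to 25.5. Neither overlapped, and the log2 differences were 7.29 ± 0.212 and 7.58 ± 0.128 (SE; limma adjusted p = 1.39e-07 and 2.94e-08). Cox8b, another oxidase subunit, spread more in sWAT, where replicates 75 and 76 stood at 21.3 and 26.8 and replicate 79 at 139, all far below the 6843 to 8231 of BAT.

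Regulated members varied more between BAT libraries. Dio2, which activates thyroid hormone inside the cell, stood at 128, 34.7, 25.7, 80.1 and 57.9 in BAT, a 5-library spread that still lay above the sWAT maximum of 3.48. Elovl3, which elongates fatty acids and responds to cold, stood at 125 in BAT replicate 80 and 57.2 to 74.6 in the other 4. Letmd1, a mitochondrial protein needed for brown fat heat production in mice, was steadier, at 762 ± 56.5 in BAT and 33.8 ± 3.25 in sWAT. S100b, a calcium-binding protein that brown adipocytes secrete to attract nerves in mice, stood at 784 ± 55.0 and 25.7 ± 5.95. Eva1a was the tested member of the list that was not called, with a log2 difference of 0.61.

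The lineage markers did not all follow the depot. Zic1, a transcription factor that marks classical brown fat, stood at 7.31, 5.59, 2.59, 5.43 and 4.43 rescaled TPM in BAT and was listed at 0 in 4 sWAT libraries and at 0.0544 in the fifth. Lhx8, often listed beside it, stood at 4.03 ± 2.20 in BAT and 11.4 ± 5.25 in sWAT. It was called in the opposite direction, higher in sWAT by 1.27 ± 0.353 on the log2 scale (SE; limma adjusted p = 0.0126), with ranges that overlapped. Prdm16, a coregulator that holds the brown programme, stood at 14.1 ± 5.64 and 8.16 ± 1.07, a log2 difference of 0.64 that was not called and that turned to -0.41 when no gene was dropped.

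**Figure D2:**
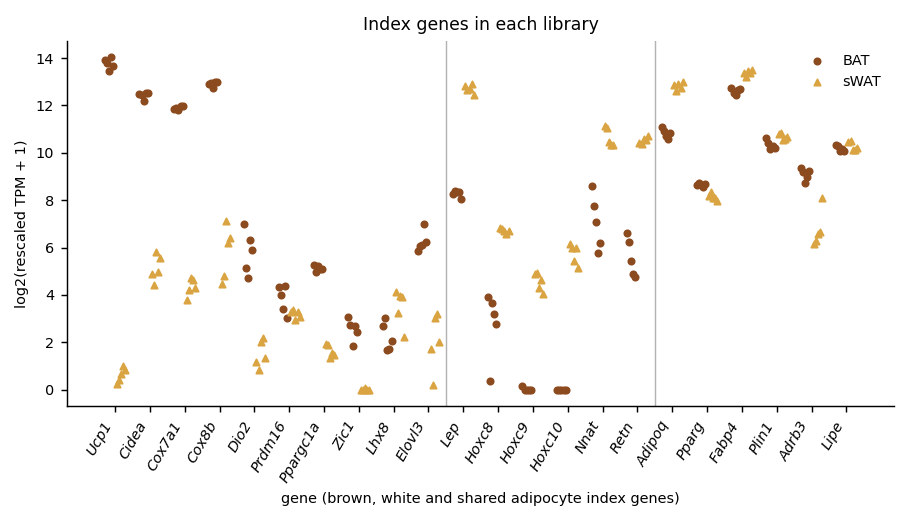
Level of the 22 index genes, as log2(rescaled TPM + 1), in each BAT (circles) and sWAT (triangles) library, with brown markers at left, white markers in the middle and genes of all adipocytes at right. Ucp1 separates by 13.14 and Lep by -4.43 on the log2 scale, while Lipe and Plin1 overlap.

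Promoter sequences were read beside these differences. The windows are the 250 bases before the RefSeq gene start on GRCm38.p6, whose coordinates differ from the GRCm39 coordinates of the expression values. They were searched on both strands for AAGGTCA, the core bound by estrogen-related receptors, and for the NRF1 motif, named for a regulator of respiratory genes. AAGGTCA was found before 65 of the 990 genes called higher in BAT that had a promoter (6.57%), before 3.04% of those called higher in sWAT and before 3.61% of all genes tested. The NRF1 motif was found before 7.88%, 4.91% and 9.03% of the same sets. In 69 promoters of the respiratory lists described below the NRF1 motif was found before 20.3%, and AAGGTCA before 8.70%. Over all 27025 promoters the shares were 4.23% and 4.70%. Shown are Ucp1, the tested thermogenic members with an AAGGTCA match, and the respiratory genes that hold both motifs, with matches in capitals.

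Ucp1, chr8:83290098-83290347, plus strand: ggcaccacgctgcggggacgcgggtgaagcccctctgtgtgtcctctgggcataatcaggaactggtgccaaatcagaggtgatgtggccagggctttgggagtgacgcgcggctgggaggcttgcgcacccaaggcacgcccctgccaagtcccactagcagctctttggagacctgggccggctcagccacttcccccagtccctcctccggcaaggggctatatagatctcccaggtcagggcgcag

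Slc27a2, chr2:126552774-126553023, plus strand: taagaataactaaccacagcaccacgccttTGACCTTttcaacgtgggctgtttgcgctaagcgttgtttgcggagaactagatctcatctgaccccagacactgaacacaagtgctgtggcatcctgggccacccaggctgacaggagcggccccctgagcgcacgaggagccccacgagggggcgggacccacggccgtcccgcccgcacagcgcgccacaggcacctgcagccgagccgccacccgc

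Cpn2, chr16:30267533-30267782, minus strand: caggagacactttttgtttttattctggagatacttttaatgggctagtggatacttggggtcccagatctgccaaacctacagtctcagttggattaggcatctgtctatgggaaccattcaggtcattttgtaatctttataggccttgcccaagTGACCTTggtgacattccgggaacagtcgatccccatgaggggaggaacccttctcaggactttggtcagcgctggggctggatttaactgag

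Ndufs5, chr4:123718187-123718436, minus strand: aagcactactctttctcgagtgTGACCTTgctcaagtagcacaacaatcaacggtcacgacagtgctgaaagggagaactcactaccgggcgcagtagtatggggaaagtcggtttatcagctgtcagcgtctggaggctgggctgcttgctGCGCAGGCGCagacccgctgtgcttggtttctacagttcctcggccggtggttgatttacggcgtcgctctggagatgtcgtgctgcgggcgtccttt

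Ndufb4, chr16:37654369-37654618, minus strand: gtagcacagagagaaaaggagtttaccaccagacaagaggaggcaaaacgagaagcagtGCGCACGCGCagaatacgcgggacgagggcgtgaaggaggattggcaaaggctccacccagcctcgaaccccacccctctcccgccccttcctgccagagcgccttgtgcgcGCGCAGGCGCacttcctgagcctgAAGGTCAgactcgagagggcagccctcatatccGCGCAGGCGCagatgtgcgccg

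Atpif1, chr4:132535415-132535664, minus strand: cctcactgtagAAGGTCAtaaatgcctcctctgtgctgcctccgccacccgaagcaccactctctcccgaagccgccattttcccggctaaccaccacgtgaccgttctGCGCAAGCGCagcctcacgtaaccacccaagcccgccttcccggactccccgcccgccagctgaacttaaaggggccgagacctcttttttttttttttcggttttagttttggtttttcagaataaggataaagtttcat

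The Ucp1 window holds neither motif, which says only that these letters are not in this window. Slc27a2, a fatty acid transporter and activating enzyme, has its match 220 bases before the start and Cpn2, a secreted carboxypeptidase subunit, 93 bases before it, both read on the opposite strand. Slc27a2 stood at 122 ± 26.5 rescaled TPM in BAT and 0.791 ± 0.713 in sWAT, and Cpn2 at 66.1 ± 9.91 and 0.239 ± 0.201 (SD, n = 5). Ndufb4 and Ndufs5, complex I subunits, were called higher in BAT by 1.81 and 1.39 on the log2 scale. Atpif1, with the same pair of motifs, was called lower in BAT, by a log2 difference of -1.504.

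The genes of white adipocyte identity were higher in sWAT. Of 22 tested members of the list 20 were called higher in sWAT and 1 in BAT, beside 20.8% and 9.57% of all genes, and their median log2 difference was -3.36 against -0.31. This list too was chosen with earlier results of these data known, so its counts are a description only. Lep (chr6:29060219-29073876, plus strand), which encodes leptin, stood at 305, 334, 323, 320.0 and 262 rescaled TPM in BAT and at 7178, 6488, 6558, 7687 and 5550 in sWAT. Every sWAT library exceeded every BAT library, and the log2 difference was -4.43 ± 0.0662 (SE; limma adjusted p = 1.55e-08). Leptin transcripts were still well measured in BAT, unlike Ucp1 in sWAT.

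Mest, an imprinted gene that marks expanding white fat in mice, stood at 10.95 ± 6.90 in BAT and 1428 ± 177 in sWAT. Sfrp5, a secreted Wnt inhibitor, stood at 12.4 ± 6.79 and 954 ± 199.7, and Slc7a10, a neutral amino acid transporter of white adipocytes, at 16.8 ± 9.26 and 601 ± 45.3. Retn, which encodes resistin, and Nnat, an imprinted membrane protein, were higher in sWAT by 4.94 and 3.59 on the log2 scale. In all of these the tissues were separate. Fam13a ran the other way, at 107 ± 47.6 in BAT and 28.4 ± 26.3 in sWAT, and replicate 79 was the highest library in both tissues, at 191 and 74.8.

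Genes of all adipocytes differed less. Adipoq, which encodes adiponectin, stood at 1826 ± 238 in BAT and 7301 ± 760.4 in sWAT and was called higher in sWAT. Pparg, the master regulator of adipocytes, stood at 403 ± 19.0 and 280.1 ± 27.1, a log2 difference of 0.53 that was not called and that turned to -0.18 with the near-copies kept. Fabp4, an adipocyte fatty acid carrier, and Plin1, which coats lipid droplets, had log2 differences of -0.76 and -0.34. Lipe, hormone-sensitive lipase, had one of -0.09. Adrb3, the beta-adrenergic receptor of adipocytes, stood at 550.5 ± 87.2 and 122 ± 83.4 and was called higher in BAT, although sWAT replicate 83 reached 269 against 69.5 to 101 in the other 4.

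Homeobox genes differed by their paralogue group. Of the 19 genes in paralogue groups 8 to 13, which pattern the trunk and hindquarters, 12 were listed at 0 in every BAT library and 6 in every sWAT library. The summed level of all 19 was 207 to 338 rescaled TPM in sWAT and 20.1 to 33.7 in BAT. The 20 genes of groups 1 to 7, which pattern the head, neck and shoulder region, summed to 183 to 255 in sWAT and 191 to 243 in BAT. Of 17 tested 3 were called higher in BAT and 6 in sWAT, beside 9.57% and 20.8% of all genes. The sums of the first set were far apart and those of the second overlapped. Single genes of the second set still differed in both directions, such as Hoxa5 by 1.87 and Hoxb5 by -1.96 on the log2 scale.

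Within the Hoxc cluster on chromosome 15, Hoxc10 was listed at 0 in all 5 BAT libraries and at 70.2, 61.8, 42.2, 61.5 and 34.0 in sWAT. Hoxc9 was listed at 0 in 4 BAT libraries and at 15.6 to 29.0 in sWAT. Hoxc8 was present in BAT, unevenly, at 14.2, 0.285, 11.8, 8.19 and 5.84, against 94.9 to 113 in sWAT. Hoxa10 was likewise listed at 0 in BAT and stood at 10.2 to 47.8 in sWAT. In the other direction Hoxa4, Hoxa5 and Hoxc4 were higher in BAT by 2.08, 1.87 and 1.07 on the log2 scale, except that Hoxc4 turned to -0.0276 when no gene was dropped. Several neighbouring Hox genes overlap in the annotation, for example Hoxc5 and Hoxc10, so the division of reads between neighbours is uncertain.

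In the whole positional list, Hox genes included, 17 of 39 tested members were called higher in sWAT, beside 20.8% of all genes, and 5 in BAT, a share near the 9.57% of all genes. Hox genes listed at 0 in every BAT library, such as Hoxa10 and Hoxc10, passed the filter only through sWAT. The direction of their calls was set by the filter, so the count of 17 is a description only. Tbx5, a forelimb and heart factor, was higher in BAT by 1.72 and Shox2, a limb factor, was higher in sWAT by 2.01 on the log2 scale. Both levels were low, at a mean of 5.48 in BAT for Tbx5 and 14.7 ± 6.88 in sWAT for Shox2.

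**Figure D3:**
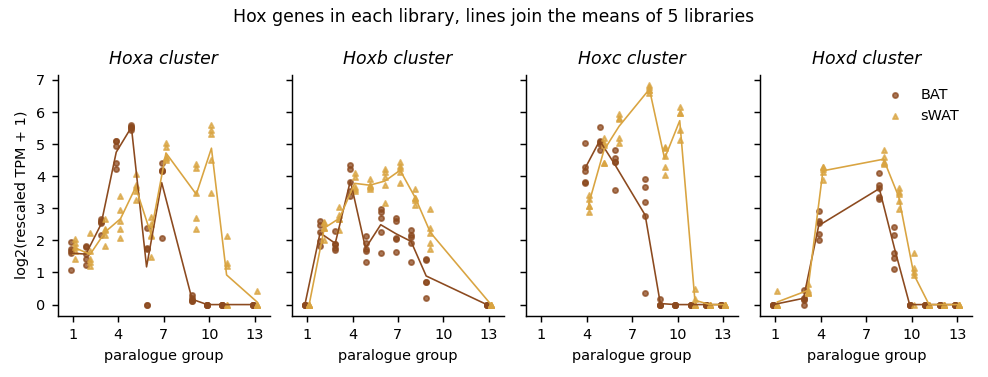
Level of the Hox genes of the 4 clusters, as log2(rescaled TPM + 1), by paralogue group in each BAT (circles) and sWAT (triangles) library, with lines through the tissue means. From group 8 onwards the summed BAT level is 20.1 to 33.7 and the summed sWAT level 207 to 338 rescaled TPM.

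Transcriptional regulators of brown and white fat were called higher in BAT for 11 of 43 members, beside 9.57% of all genes, and in sWAT for 7, no larger a share than the 20.8% of all genes. The coactivators of mitochondrial genes separated clearly. Ppargc1a stood at 38.0, 29.95, 36.2, 32.9 and 33.4 rescaled TPM in BAT and 2.80, 2.69, 1.55, 1.94 and 1.75 in sWAT, and Ppargc1b at 95.6 ± 9.79 and 2.78 ± 1.86. Their log2 differences were 3.49 and 4.81. Ppara, a nuclear receptor for fatty acid oxidation genes, stood at 183 ± 41.2 and 3.19 ± 0.565. Esrra, an estrogen-related receptor, was higher in BAT by 2.06, and Ebf2, which marks brown precursors, by 2.45 on the log2 scale.

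On the sWAT side, Zfp423, which restrains the thermogenic programme in white adipocytes, stood at 14.7 ± 3.32 in BAT and 61.6 ± 8.23 in sWAT. Nrip1, a corepressor of oxidative genes, was higher in sWAT by 1.99 and Zfp521, which opposes adipocyte commitment, by 1.42 on the log2 scale. The balance of this list follows the scale, since with the near-copies kept 9 members were called higher in BAT and 12 in sWAT.

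Nuclear genes of the respiratory chain were higher in BAT almost throughout. Of 36 nuclear subunits of complex I 35 were called higher in BAT, of 14 genes of complexes II and III all 14, of 16 of complex IV 14, and of 17 of the ATP synthase 12. None of the first 3 lists had a member called higher in sWAT. Median log2 differences were 2.02, 2.40, 2.004 and 1.64, against -0.31 for all genes. With the near-copies kept the counts higher in BAT were 25, 14, 13 and 8, and when no gene was dropped 13, 11, 7 and 3. Counts higher in sWAT were 0, 0, 0 and 3 with the near-copies kept and 0, 0, 1 and 3 when no gene was dropped.

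Ndufv1, which binds NADH in complex I, stood at 1726 ± 78.7 rescaled TPM in BAT and 221 ± 11.2 in sWAT. Sdhb of complex II stood at 1552 ± 65.7 and 167 ± 17.6, Uqcrc2 of complex III at 1943 ± 79.6 and 217 ± 21.3, and Cox5a of complex IV at 1077 ± 82.9 and 142 ± 11.4. Atp5b, the catalytic beta subunit of the ATP synthase, stood at 7965 ± 268 and 1424 ± 152. The spread within each tissue was small beside these gaps. Ndufb3 was the member of complex I that was not called, with a log2 difference of 0.84.

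The ATP synthase had 2 members that ran against the rest. Atpif1, which encodes the inhibitory factor of the enzyme, stood at 28.5, 24.9, 27.5, 25.1 and 22.1 rescaled TPM in BAT and 77.4, 75.2, 73.5, 81.8 and 64.4 in sWAT, without overlap. Atp5g1, a gene for subunit c of the membrane ring, stood at 8.18, 6.73, 27.4, 5.06 and 4.80 in BAT and 21.9 to 27.8 in sWAT, so that BAT replicate 79 reached the sWAT range. Its log2 difference was -1.45 ± 0.333 (SE; limma adjusted p = 0.0051). Subunit c is encoded by 3 similar genes with pseudogenes, so the level of each is uncertain.

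Fuel oxidation upstream of the chain followed. Of 22 genes of the tricarboxylic acid cycle and its entry 20 were called higher in BAT and none in sWAT, with a median log2 difference of 2.64. Pdk4, which shuts pyruvate dehydrogenase when fat is burned, stood at 3500.2, 3167, 4724, 2284 and 3953 in BAT and 77.5, 125, 325, 83.7 and 192 in sWAT, and replicate 79 was again the highest in both tissues. Pcx, which replenishes oxaloacetate, stood at 683 ± 62.0 and 989.7 ± 194 and was not called.

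Of 24 genes of fatty acid oxidation 19 were called higher in BAT and 1 in sWAT, with a median of 2.31. Acaa2, the last enzyme of the mitochondrial spiral, stood at 7199 ± 214 in BAT and 376 ± 15.5 in sWAT, and Acadvl, which starts on very long chains, was higher by 4.21 on the log2 scale. The member called higher in sWAT was Cpt1a, the liver form of the entry enzyme, at 17.5 ± 1.98 and 80.9 ± 7.05. Peroxisomal members (Acaa1a, Hsd17b4, Ehhadh) had log2 differences of -0.36 to 0.46 and were not called, and the signs of Hsd17b4 and Ehhadh turned under other scalings.

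Related genes were compared in pairs, most of them 2 forms of a subunit, enzyme or carrier and 1 the mitochondrial and cytosolic enzymes of a shuttle. TPM is per length, so levels within a pair can be compared. In all 12 pairs examined, the share of the first gene differed between the tissues in an exact two-sided permutation test (adjusted p over the pairs 0.00866 to 0.0159, n = 5 against 5). That test does not use the label numbers, and an exact sign-flip permutation over the 5 numbers gave p = 0.0625 for each pair, the smallest it can give. Several pairs hold genes already named for large differences, such as Ucp1, Fabp3 and Cpt1b, so the tally describes these pairs only. Cox7a1 made up 78.0% ± 0.341 of Cox7a1 plus Cox7a2 in BAT and 5.90% ± 1.18 in sWAT. Cox8b made up 60.1% ± 0.944 of Cox8b plus Cox8a in BAT and 3.36% ± 2.20 in sWAT. Cpt1b made up 98.8% ± 0.137 of Cpt1b plus Cpt1a and 15.3% ± 2.95.

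These shares do not depend on the scaling of the library. The ubiquitous forms were called higher in BAT too, Cox7a2 by 1.80 and Cox8a by 1.42 on the log2 scale, beside the larger differences of Cox7a1 and Cox8b. Fabp3 made up 47.8% ± 1.76 of Fabp3 plus Fabp4 in BAT and 0.00531% in sWAT, while the sum of the pair was 1.13 times that of sWAT. Plin5, the perilipin that ties droplets to mitochondria, made up 44.2% ± 5.89 of Plin5 plus Plin4 and 1.04% ± 0.240. Cox4i2, a hypoxia-linked form, was the exception in direction, at 0.504% ± 0.111 of Cox4i2 plus Cox4i1 in BAT and 2.25% ± 0.580 in sWAT.

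Pairs that include a muscle gene moved with replicate 79. Cox6a2 was 353 rescaled TPM in BAT replicate 79 and 6.08 to 36.1 in the other BAT libraries. Atp2a1, the calcium pump of fast muscle, was 1983 there and 29.5 to 281 elsewhere in BAT, and Ckmt2, a mitochondrial creatine kinase of muscle, was 274 and 3.90 to 28.4. These follow the order of the muscle markers, highest in replicate 79 and lowest in 83, and their part in these pairs was not tested.

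**Figure D4:**
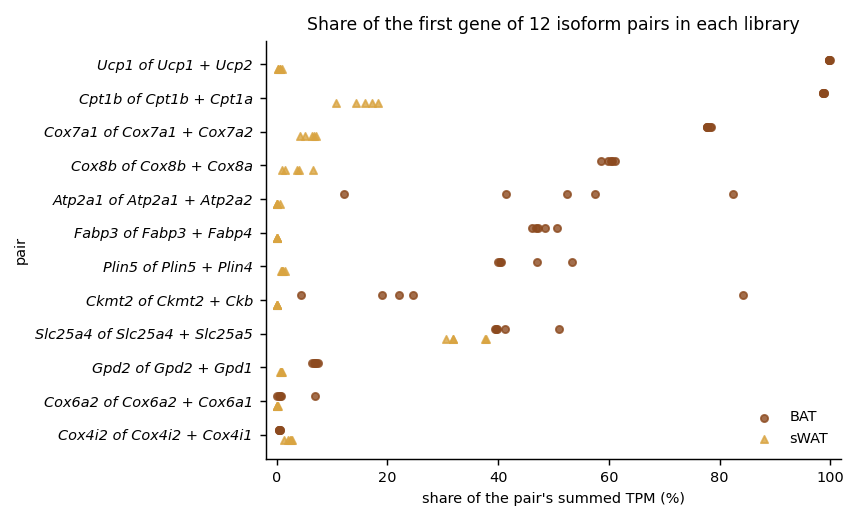
Share of the first gene in the summed TPM of each of 12 isoform pairs, in percent, in each BAT (circles) and sWAT (triangles) library. Cox7a1 sits near 78.0% in BAT and 5.90% in sWAT, while the pairs with Ckmt2 and Atp2a1 spread widely within BAT.

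The list of uncoupling and futile cycles, which holds Ucp1 again, had 11 of 19 tested members called higher in BAT and 3 in sWAT. Members near the limit of measurement in sWAT, such as Ucp1, passed the filter through BAT. The filter thus set the direction of their calls, so the count of 11 is a description only. Without replicate 79, where muscle transcripts were highest, 10 were called higher in BAT and 3 in sWAT. The part of muscle transcripts in this count was not tested further. The glycerol phosphate shuttle, which carries reducing power from the cytosol to the respiratory chain, was prominent. Gpd2, its mitochondrial enzyme, stood at 849 ± 58.8 in BAT and 17.7 ± 2.43 in sWAT, and Gpd1, its cytosolic enzyme, at 11520 ± 1492 and 2340 ± 211. Gk, glycerol kinase, was higher by 2.91 on the log2 scale. The higher members in sWAT were Ucp2, an uncoupling protein homologue, at 23.4 ± 4.15 and 104 ± 20.6, Gamt, which makes creatine, by 2.84, and Atp2a3, a calcium pump, by 3.04.

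Ckb and Atp2a2, of the creatine and calcium cycles, were not called. Ckb, the creatine kinase of brown fat in mice, stood at 74.9 ± 14.7 and 49.6 ± 7.79, a log2 difference of 0.58 that turned to -0.12 with the near-copies kept. Atp2a2, the calcium pump of beige fat in mice, had a log2 difference of 0.92, and BAT replicate 79 stood at 420.0 against 205 to 255 in the other 4.

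Mitochondrial carriers were called higher in BAT for 11 of 24 tested members (45.8%) and in sWAT for 3 (12.5%). All genes tested gave 9.57% and 20.8%, and the balance of the list turned to 3 and 5 when no gene was dropped. Slc25a34 stood at 100.1 ± 24.9 and 1.15 ± 0.178, and Slc25a42, which imports coenzyme A, at 342 ± 51.7 and 20.7 ± 3.50. Slc25a10, the dicarboxylate carrier that white fat uses to export malate, was the reverse, at 12.7 to 33.2 in BAT and 453 to 565 in sWAT. Of ketone and branched-chain amino acid genes 12 of 21 were called higher in BAT and 2 in sWAT, although with the near-copies kept the counts were 3 and 2 and with no gene dropped 0 and 4. Bckdha, a subunit of the complex that commits branched-chain amino acids to oxidation, was higher in BAT by 2.07, and Bcat1, the cytosolic transaminase, higher in sWAT by 3.04 on the log2 scale.

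Transcripts of glycolysis and glucose uptake were mostly higher in BAT, with 17 of 24 tested members called there and none in sWAT. The shares of all genes were 9.57% and 20.8%, and the median log2 difference of the list was 1.74. Slc2a5, the fructose transporter, stood at 14.7, 25.7, 21.4, 40.9 and 20.7 rescaled TPM in BAT and at 0 to 0.181 in sWAT. Slc2a5 passed the filter only through BAT, so the filter set the direction of its call. Ldhb, the lactate dehydrogenase subunit of oxidative tissues, stood at 1541 ± 91.6 and 123 ± 18.5, and Pkm, pyruvate kinase, was higher by 2.62 on the log2 scale. Slc2a4, the insulin-responsive glucose transporter, stood at 456 ± 87.6 and 179 ± 18.5. Slc2a1, the basal glucose transporter, stood at 10.8 and 18.6 on average and was not called. With the near-copies kept, 12 members were called higher in BAT and 3 in sWAT.

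Several enzymes of fat synthesis were higher in BAT. Of 27 tested genes of fatty acid and triglyceride synthesis 10 were called higher in BAT and 4 in sWAT. Acly, which makes cytosolic acetyl-CoA, stood at 1130.4, 1883, 1452, 2267 and 1419 in BAT and 160.1 to 242 in sWAT. Fasn, fatty acid synthase, stood at 3857, 6888, 5193, 7186 and 5234 in BAT and 593 to 1293 in sWAT. Both were lowest in BAT replicate 75 and highest in replicate 80, yet separate from sWAT in every library. Elovl6, which elongates palmitate, was higher in BAT by 4.60 on the log2 scale.

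The desaturases differed from this. Scd1, the most abundant nuclear transcript of BAT, stood at 17670 ± 3966 in BAT and 14392 ± 3258 in sWAT, a log2 difference of 0.29 that was not called and that turned to -0.41 with the near-copies kept. Scd2 was higher in sWAT, at 104 ± 22.3 and 475 ± 97.2. With no gene dropped the synthesis list held 8 members called higher in BAT and 13 in sWAT.

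Droplet and lipolysis genes differed in both directions. Cidea and Plin5, described above, were higher in BAT with Cideb and G0s2, by 3.76 and 1.26 on the log2 scale for the latter. Cidec, which fuses droplets into 1 large one, stood at 1959 ± 242 and 8624 ± 836, and Plin4 at 611 ± 145 and 3356 ± 398. In all, 7 of 22 were called higher in BAT (31.8%) and 3 in sWAT (13.6%), beside 9.57% and 20.8% of all genes. The sWAT share was thus below that of all genes. With the near-copies kept the counts were 5 and 8. In uptake and binding 5 of 20 were called higher in BAT and 6 in sWAT, shares of 25% and 30% beside 9.57% and 20.8% of all genes, but 3 and 12 with the near-copies kept and 5 and 2 under median-ratio scaling. Lpl, lipoprotein lipase, stood at 1357 ± 169 and 5606 ± 249.7, and Cd36, the fatty acid translocase, at 2554 ± 116 and 5419 ± 167.

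Secreted factors were mostly higher in sWAT, with 16 of 26 tested called there and 4 in BAT, beside 20.8% and 9.57% of all genes. The median log2 difference of the list was -1.53. Beside Lep, Adipoq, Retn and Sfrp5, Serpina3n, a protease inhibitor, was higher in sWAT by 5.32 and Igf1 by 3.55 on the log2 scale. Kng2, a kininogen gene, was the largest of those higher in BAT, at 250.1, 304, 219, 300.4 and 263 rescaled TPM against 0.679 to 0.981. Kng2 passed the filter only through BAT, so the filter set the direction of its call. Vegfa, which drives vessel growth, and Nampt, which makes an NAD precursor, were higher in BAT by 1.20 and 1.81.

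Receptors were called higher in sWAT for 12 of 27 tested, beside 20.8% of all genes, and in BAT for 4, a share near the 9.57% of all genes. The sWAT count was 17 with the near-copies kept. Adrb1 stood at 29.0 ± 9.36 in BAT and 3.53 ± 1.17 in sWAT, and with Adrb3 it was among those higher in BAT. Ffar2, a receptor for short-chain fatty acids, stood at 13.5, 11.8, 4.68, 3.06 and 1.93 in BAT and 166 to 194 in sWAT. Mc2r, the receptor for adrenocorticotropic hormone, was higher in sWAT by 3.83 and Ghr, the growth hormone receptor, by 2.46 on the log2 scale.

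Thyroid genes gave 3 of 10 called higher in BAT, Dio2 and Thrsp among them, and 1 in sWAT, which turned to 2 and 3 with no gene dropped. Thrsp, a lipogenic gene that responds to thyroid hormone, stood at 3512 ± 739 and 492 ± 87.2. Tshr, the thyrotropin receptor, was the reverse, at 13.4 ± 4.74 in BAT and 145 ± 10.4 in sWAT.

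Matrix and stromal genes were higher in sWAT. Of 31 collagen and matrix genes 30 were called higher in sWAT and none in BAT, with a median of -2.26. Col15a1, a basement membrane collagen, stood at 37.2 ± 10.5 in BAT and 757 ± 34.4 in sWAT, and Sparc, a matrix protein, at 1208 ± 72.9 and 6967 ± 524. Of 18 tested fibroblast and progenitor markers 15 were called higher in sWAT, among them Dpt, dermatopontin, at 206 ± 96.6 and 2138 ± 372. Pi16, a marker of early progenitors, was not called, since sWAT ranged from 4.20 to 71.6.

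Vascular markers differed less. Of 19 endothelial markers 10 were called higher in sWAT, but 17 with the near-copies kept and 3 under median-ratio scaling, so this count rests on scale. Plvap, the diaphragm protein of fenestrated vessels, stood at 24.1 ± 3.97 in BAT and 194 ± 32.5 in sWAT, while Flt1, a VEGF receptor, stood at 63.1 ± 19.9 and 42.1 ± 5.96 and was not called. Of 13 smooth muscle and pericyte markers 5 were called higher in sWAT, led by Acta2 at 53.8 ± 12.5 and 371 ± 44.7. The member called higher in BAT was Des, which skeletal muscle also expresses, at 334 in BAT replicate 79 and 50.8 to 75.8 in the other 4.

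Immune markers were higher in sWAT. Of 17 tested macrophage markers 15 were called higher there and none in BAT. Their sum was 345 to 741 rescaled TPM in BAT and 1154 to 2954 in sWAT. Cd68 was higher in sWAT by 2.49 on the log2 scale. Of 18 genes of lipid-associated macrophages, which gather around dying adipocytes in obesity, 12 were called higher in sWAT, among them Ctsk, cathepsin K, at 10.1 ± 4.39 and 152 ± 29.9 and Trem2, a lipid-sensing receptor, at 1.69 ± 1.55 and 12.7 ± 5.91. Adipocytes express some genes of this list, including Lpl and Cd36.

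Lymphocyte markers were low. The 16 T and NK cell markers had sums of 3.31 to 5.62 in BAT and 30.7 to 65.3 in sWAT. The 8 tested among them passed the filter mostly through sWAT, so their calls are not counted here. Trbc2, a T cell receptor constant gene, was higher in sWAT by 2.38 on the log2 scale. Ighm, the immunoglobulin mu gene, stood at 98.5 ± 19.8 and 2234 ± 254 and Igkc, a light chain, at 4.61 ± 2.35 and 42.1 ± 23.0, whereas the B cell genes Cd79a and Ms4a1 averaged at most 1.58 in either tissue. Ighm alone thus made up nearly all of the summed B cell list, 2042 to 2654 in sWAT.

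Remaining cell types added little. Granulocyte and mast cell markers were called higher in sWAT for 4 of 8 tested, but for 1 under median-ratio scaling and 2 without replicates 79 and 83, and among the 4 was S100a8 by 2.91 on the log2 scale. Of 10 tested Schwann and nerve markers 1 was called higher in BAT, the S100b already described, and 2 in sWAT, including Uchl1 by 2.75, shares like those of all genes. Of 20 epithelial markers 2 were tested and none called, and of 7 mesothelial markers none was tested. Of 17 tested proliferation genes 15 were called higher in sWAT, some tested only through sWAT, at low levels such as 1.25 ± 0.594 and 8.50 ± 1.90 for Mki67, and 3 with a pseudocount of 5.

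**Figure D5:**
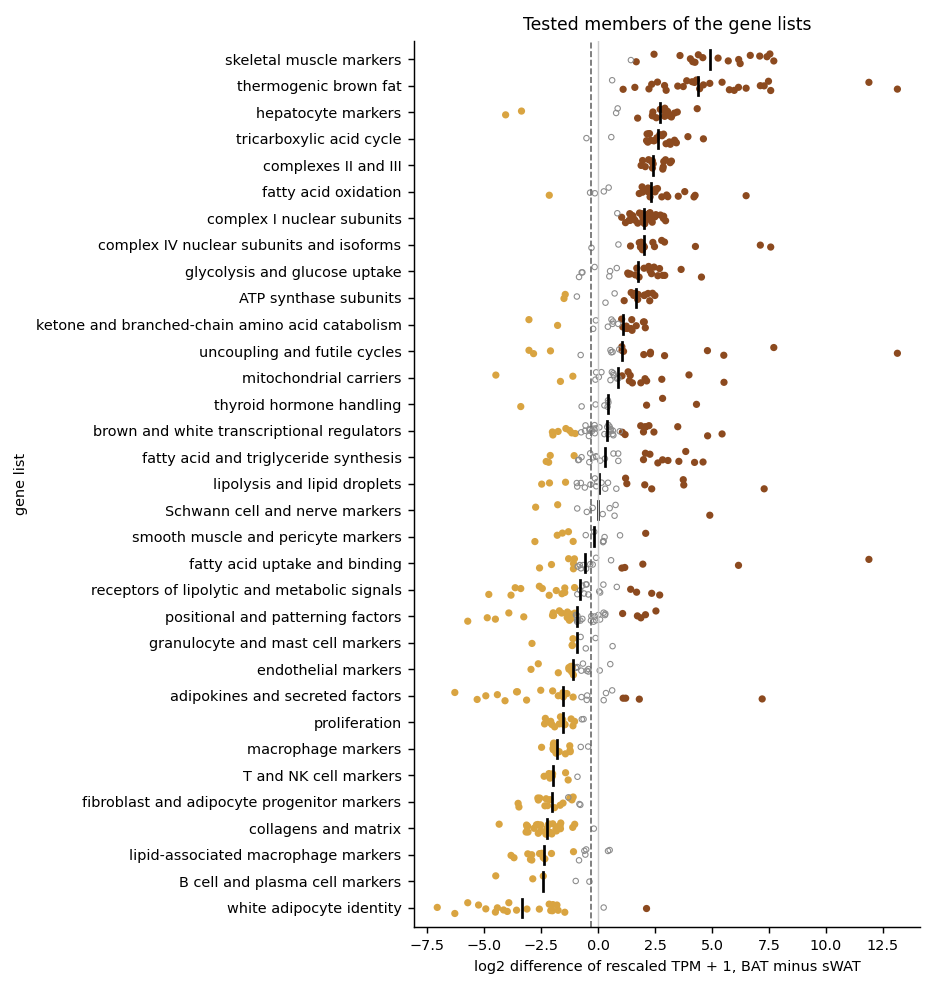
Log2 difference (BAT minus sWAT) of every tested member of the 33 lists with at least 5 tested members, filled where called and open where not, with a bar at each list's median and a dashed line at the median of all genes, -0.31. Thermogenic, muscle and oxidative lists lie to the right and white identity, immune and matrix lists to the left.

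Muscle markers were higher in BAT by their sums, given above. Many of them were near 0 in sWAT and could be tested only through BAT, so their calls are not counted here. Ckm, muscle creatine kinase, stood at 157, 156, 1167, 107 and 20.03 rescaled TPM in BAT and at 0 to 0.381 in sWAT. The summed muscle markers lay above sWAT in each BAT library, including replicate 83, although single genes such as Tnnc1 and Tnnt1 overlapped. Of 19 tested hepatocyte markers 15 were called higher in BAT, and 10 without replicates 79 and 83, but the 2 tissues overlapped for each of the 15. Alb, serum albumin, stood at 212, 506, 1185, 14.1 and 1187 in BAT and at 19.6, 75.03, 91.1, 26.2 and 83.8 in sWAT, so that replicates 79 and 83 were the highest and replicates 75 and 80 the lowest in both tissues. The part of muscle and liver transcripts in the other results was not tested beyond the counts without these replicates, which were 27 for the thermogenic list and 20 for the white list without 79 and 83. Trf, transferrin, and Cyp2e1, which adipocytes also express, were higher in sWAT by 4.07 and 3.37 on the log2 scale.

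The 15 largest differences on each side, among called genes without overlap and with at least 10 rescaled TPM in the higher tissue, were partly of other kinds. On the BAT side 5 of the 15 were muscle genes (Atp2a1, Myh4, Tnnt3, Ckm and Mb). The other 10 were Ucp1, Fabp3, Cox7a1, Acot11, Cidea, Kng2, Cox8b, Lgr6, Perm1 and Cpt1b. Acot11, an acyl-CoA thioesterase of brown fat, stood at 467 ± 109.8 in BAT and 1.59 ± 0.357 in sWAT. Lgr6, an R-spondin receptor, stood at 101, 108, 91.3, 99.0 and 129 in BAT and was listed at 0 in 3 of the sWAT libraries. Perm1, a regulator of oxidative genes in muscle, ranged from 93.0 to 116 in BAT and from 0.138 to 0.481 in sWAT.

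On the sWAT side the 15 were Oxtr, Mest, Sfrp5, Lipf, Hoxc10, Ubd, Igfals, Tph2, Fgf13, Itgad, Crtac1, Lbp, Serpina3c, Slc5a7 and Serpina3n, and 2 predicted genes with differences as large were not named. Oxtr, the oxytocin receptor, stood at 0.785, 1.93, 0.792, 0.340 and 0.173 in BAT and 314, 253, 225, 355 and 207 in sWAT, a log2 difference of -7.28 ± 0.209 (SE; limma adjusted p = 1.31e-07). Tph2, the serotonin-synthesis enzyme of neurons, stood at 1.31 ± 0.672 and 111 ± 54.1, and Slc5a7, the choline transporter, at 0.970 ± 0.438 and 79.4 ± 16.05. Ubd, an ubiquitin-like protein induced by inflammation, ranged from 269.8 to 968 in sWAT and from 7.36 to 11.8 in BAT. Lbp, which binds lipopolysaccharide, stood at 8.30 ± 2.24 and 386 ± 36.9.

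Spread within BAT was largest for muscle and liver transcripts. The 10 genes of largest SD on the log2 scale in BAT were Tnnc1, Tnnt1 and Myh1 of muscle, each highest in replicate 79, and Fabp1, Alb, Fga, Fgg, Apoa1, Serpina1d and Mup20 of liver, each lowest in replicate 80. In sWAT 5 of the 10 were liver transcripts (Apoa2, Serpina1c, Ttr, Apoa1 and Fabp1), each lowest in replicate 75. The others included Fosb, Mt2 and Ptx3, each highest in replicate 79. Mt2, a metallothionein that stress hormones and zinc induce, stood at 77.9, 235, 2720, 125 and 401 in sWAT and 71.8, 140.5, 1090, 69.2 and 360.3 in BAT.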

How the data were processed

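Poly(A) RNA was sequenced from strand-specific libraries, per the labels' protocols, and the authors deposited TPM, made with STAR and RSEM on GRCm39 per the submitters' processing notes. Their versions, annotation and any filter: not given in the sources used here. TPM keeps no read depth, so no counting interval is given.

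The members and lists were chosen with earlier results of these data known. The 37 mitochondrially encoded genes were dropped, with 16 nuclear genes whose GENCODE vM21 transcripts matched one at 90% identity or more over 80% of the length (BLAST+ 2.17.0; 3276 of 55357 genes had no transcript to search), and values were rescaled to 1000000. Genes reaching 1 rescaled TPM in 5 or more of the 10 libraries entered limma 3.58.1 in R 4.3.3 on log2(TPM + 1), which understates the differences of low genes, with a trended variance, the label number as a block and Benjamini-Hochberg adjustment over all 14064 genes. A call needed an adjusted p under 0.05 and 2-fold. Shares were compared with exact two-sided permutation tests. In simulated data 89% of genes shifted by 1.5 and 99% of genes shifted by 2 (log2) were called, with 3 false calls of 14064 genes. Each shift was given to 100 genes of higher level. The noise was independent, with no effect of the number, no difference in scale and no library set apart. The false calls are therefore no error rate for the real comparison.

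Named genes were the index genes, isoform pairs, the 15 largest differences each way, the leading and defining members of each list, the 10 of largest SD in each tissue, and genes with a library set apart; a few further list members were chosen after their values were seen. No 2 libraries were identical. Alternatives covered the genes dropped, scaling, pseudocount, filter, block and each replicate left out; leaving out replicates 79 and 83 together was added after seeing the data.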

Additional observations from a re-analysis of the deposited data

Results flagged for a closer look

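In 142 groups of 5 libraries, 16 had a highest or lowest library set apart from the rest by a gap of more than 0.71 of the group's range, where chance gives about 1 in 20, or 7.1. All values are rescaled TPM. Of the 16, 8 were muscle transcripts or their sum in BAT replicate 79. There the skeletal muscle marker sum was 20779 (other 4 libraries 468 to 2927), Atp2a1 1983, Myh4 1755, Tnnt3 2039, Ckm 1167, Mb 916, Cox6a2 353 and Ckmt2 274. In the same library Slc25a4, the ADP/ATP carrier of muscle and heart, was 1020 (667 to 765), Atp2a2 was 420 (205 to 255) and the smooth muscle and pericyte sum was 1219 (862 to 925). Cidea was lowest there, at 4687 (5499 to 5825).

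Elovl3 was 125 in BAT replicate 80, above the other 4. Adrb3 was 269 in sWAT replicate 83 (69.5 to 101). Cox6a2 was 3.26 in sWAT replicate 80 (0.395 to 0.91). The B cell and plasma cell sum was 143 in BAT replicate 76 (89.9 to 105).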

How the results depend on the processing

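The number of genes called, 4266, moved with the genes dropped. It was 6859 (694 higher in BAT and 6165 in sWAT, median log2 difference -0.93) with the near-copies kept and 9360 (418 and 8942, median -1.32) with none dropped. Median-ratio scaling brought the median to -0.00492 and no filter to -0.11. A pseudocount of 5 gave 2566 calls, 1641 of them higher in sWAT. A call on adjusted p alone gave 10179 (3054 and 7125), and one at 4-fold 1241 (497 and 744). Leaving out each replicate gave 4177 to 4453 calls, 1336 to 1424 higher in BAT and 2815 to 3111 in sWAT, with medians from -0.34 to -0.29. Lists with more members called higher in BAT than in sWAT numbered 17, and 10 with none dropped.

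The mitochondrial shares differed by 25.3 and 45.0 points, 24.9 to 26.0 and 44.1 to 46.2 without each replicate, but an exact permutation by sign flips over 5 pairs gives p = 0.0625 for both, the smallest it can give. For the same reason 0 of 12 isoform pairs could pass in a replicate block of sign flips, and 11 to 12 passed without each replicate. The labels do not say that a number marks an animal. Deviations from the group means correlated between same-numbered libraries at 0.299, 0.0517, 0.245, 0.253 and 0.213, and 4 of 5 BAT libraries correlated best with their own number. Without the replicate block 4242 genes were called (1331 and 2911).

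Of 184 named genes over 14 alternatives, 24 of 2558 values turned in sign, and the cause was not tested. With none dropped these were Prdm16 (-0.41), Pparg (-0.67), Slc25a4 (-0.16), Slc25a5 (-0.66), Ckb (-0.60), Atp2a2 (-0.27), Eva1a (-0.32), Hoxc4 (-0.0276), Ndufb3 (-0.36), Scd1 (-0.91), Flt1 (-0.64), Hoxc5 (-0.84), Hsd17b4 (-0.95) and Ehhadh (-0.72). With the near-copies kept they were Pparg (-0.18), Slc25a5 (-0.17), Ckb (-0.12), Scd1 (-0.41), Flt1 (-0.16), Hoxc5 (-0.38), Hsd17b4 (-0.46) and Ehhadh (-0.24). Under median-ratio scaling they were Lipe (0.26) and Cox4i2 (0.0295). TPM keeps no depth, so the counting error of low values such as Ucp1 in sWAT is not known.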

Other observations

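Among the 20 most abundant nuclear transcripts of each tissue, chosen by mean level and not by difference, 2 were shared, Scd1 and Fabp4. The sWAT ranking began with Car3, a carbonic anhydrase of white adipocytes, at 16918 ± 1014 rescaled TPM, against 3474 ± 1237 in BAT (SD, n = 5). Ifi27l2a, an interferon-responsive gene, stood at 12003 ± 3231 in sWAT and 1655 ± 837 in BAT, and B2m, the light chain of class I histocompatibility molecules, at 8491 ± 995 and 1750 ± 225. Tuba1a, an alpha tubulin, stood at 5545 ± 516 and 192 ± 39.5, and Sncg, a synuclein of white adipocytes, at 4917 ± 342 and 357 ± 156. These 5 were singled out after their values were seen, and all were called higher in sWAT.

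The BAT ranking held Ucp1 in second place, with 1.41% of the rescaled total. Gpd1, Atp5b, Cox8b and Acaa2 were also among its first 10.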
